A study of Arabidopsis thaliana with 18 samples.

Results

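The 38 genes described here encode the enzymes, phosphatases and transporters that make transitory starch in Arabidopsis leaves by day and break it down by night. They were taken as the rows of the deposited gene table whose identifiers belong to the beta- and alpha-amylases, debranching enzymes, glucan kinases and phosphatases, starch synthases, branching enzymes, ADP-glucose pyrophosphorylase and the steps around them, so the choice used no measured value. The table holds 33039 genes, of which 20044 reached 1 TPM (a transcript level scaled to gene length and to the total of its sample) in at least 3 samples and were tested, and 37 of the 38 starch genes passed this filter.

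The study asked how the root endophyte Serendipita indica alters the aboveground parts of its host at normal and raised ambient temperature. Col-0 wild type seedlings were raised at 22°C on medium with 1.2% sucrose, inoculated at 9 days of age, and kept with the fungus (Si) or without it (CK) at 22, 25 or 28°C under 12 h of light and 12 h of dark. Whole aboveground parts were taken 7 days post inoculation, with 3 biological replicates in each of the 6 groups, Si and CK at 22°C, Si and CK at 25°C, and Si and CK at 28°C. All groups therefore share 1 accession and a start on a sugar-containing medium, and the hour of harvest is not given in the sources used here.

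Starch is built in the chloroplast from ADP-glucose, which ADP-glucose pyrophosphorylase makes from a hexose phosphate. Starch synthases and branching enzymes then assemble the granule, helped by isoamylases that trim it. At night the granule surface is phosphorylated and dephosphorylated in turn, beta-amylases release maltose, and maltose leaves the chloroplast through MEX1 for use in the cytosol. Transcripts of many of these genes are known to oscillate over the day, while the enzymes change less.

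The 250 bases before the annotated gene start are shown for 8 of the genes, read from the TAIR10.1 genome of RefSeq, 5′ to 3′ on the strand of the gene. APL3 and APL1, and BAM3 and BAM4, are shown because they changed in opposite directions within a gene family (APL1 at 25 and 28°C). GPT2 is shown because its Si effect grew with temperature, and PHS1, SS4 and DPE1 because they carry several G-boxes. Capitals mark the W-box TTGACC in APL1 and BAM4 (in both it reads GGTCAA, being on the opposite strand), the evening element AAAATATCT in GPT2, and the G-box CACGTG in PHS1, SS4 and DPE1.
APL3 (AT4G39210), chr4:18259297-18259546, plus strand: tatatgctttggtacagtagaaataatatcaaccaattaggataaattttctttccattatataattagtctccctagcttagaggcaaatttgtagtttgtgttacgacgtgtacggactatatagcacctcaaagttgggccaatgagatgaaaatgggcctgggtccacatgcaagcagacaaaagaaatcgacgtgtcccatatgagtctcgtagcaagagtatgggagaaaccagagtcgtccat
APL1 (AT5G19220), chr5:6466832-6467081, minus strand: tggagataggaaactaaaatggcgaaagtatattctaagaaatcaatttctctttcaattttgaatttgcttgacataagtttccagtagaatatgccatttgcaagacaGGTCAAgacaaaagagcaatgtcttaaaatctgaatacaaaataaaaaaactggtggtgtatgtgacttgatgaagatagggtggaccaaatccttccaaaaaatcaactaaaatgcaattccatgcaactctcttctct
BAM3 (AT4G17090), chr4:9607403-9607652, minus strand: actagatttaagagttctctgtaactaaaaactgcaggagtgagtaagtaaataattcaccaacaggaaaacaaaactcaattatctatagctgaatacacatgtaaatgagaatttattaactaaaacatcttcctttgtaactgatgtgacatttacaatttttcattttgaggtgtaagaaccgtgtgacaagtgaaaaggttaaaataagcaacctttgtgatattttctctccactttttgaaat
BAM4 (AT5G55700), chr5:22551484-22551733, plus strand: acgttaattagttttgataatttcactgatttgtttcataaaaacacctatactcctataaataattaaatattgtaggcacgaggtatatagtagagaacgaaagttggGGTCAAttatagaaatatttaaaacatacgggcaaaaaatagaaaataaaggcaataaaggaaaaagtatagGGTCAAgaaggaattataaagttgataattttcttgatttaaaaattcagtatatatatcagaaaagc
GPT2 (AT1G61800), chr1:22824164-22824413, plus strand: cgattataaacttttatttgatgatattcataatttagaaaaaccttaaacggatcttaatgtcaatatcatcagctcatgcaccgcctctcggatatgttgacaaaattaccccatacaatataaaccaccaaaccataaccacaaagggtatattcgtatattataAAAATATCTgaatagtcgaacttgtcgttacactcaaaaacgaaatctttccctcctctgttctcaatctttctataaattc
PHS1 (AT3G29320), chr3:11252557-11252806, plus strand: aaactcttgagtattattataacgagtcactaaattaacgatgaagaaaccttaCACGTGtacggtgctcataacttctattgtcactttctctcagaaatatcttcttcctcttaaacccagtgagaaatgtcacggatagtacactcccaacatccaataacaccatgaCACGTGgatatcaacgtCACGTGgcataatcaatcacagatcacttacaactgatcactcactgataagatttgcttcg
SS4 (AT4G18240), chr4:10081858-10082107, plus strand: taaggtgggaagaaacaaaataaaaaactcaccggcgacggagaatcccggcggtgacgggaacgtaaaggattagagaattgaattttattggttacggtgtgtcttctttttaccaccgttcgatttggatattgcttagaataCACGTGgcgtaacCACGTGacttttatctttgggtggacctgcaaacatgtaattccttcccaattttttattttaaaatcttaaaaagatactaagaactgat
DPE1 (AT5G64860), chr5:25928880-25929129, minus strand: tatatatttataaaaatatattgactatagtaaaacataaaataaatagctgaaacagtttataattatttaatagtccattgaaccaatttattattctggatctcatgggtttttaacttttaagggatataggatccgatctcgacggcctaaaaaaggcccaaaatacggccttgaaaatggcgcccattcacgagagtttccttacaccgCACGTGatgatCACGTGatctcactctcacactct

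In the 300-base window that adds the first 50 bases of the gene, the G-box CACGTG was found in 12 of the 38 starch genes (31.6%), against 7.68% of the windows of all 27443 protein-coding genes. The evening element AAAATATCT, a motif of evening-phased genes, was found in 6 (15.8%), against 2.82% of all windows, namely in DPE1, GPT2, GWD1, ISA3, PGM1 and PWD. The I-box core GATAAG was in 13.2% against 14.6%, the W-boxes TTGACC and TTGACT were in 5.26% against 14.2% and in 13.2% against 21.8%, the telo box AAACCCTA was in 5.26% against 6.22%, and the sugar-starvation element TATCCA was in 10.5% against 16.1%. These rest on 2 to 5 of the 38 windows each, and those of the I-box and the telo box lay within 1 gene of the share of all windows. Both strands were searched, and in PHS1 a TATCCA match overlaps a G-box. These matches describe the letters of the windows only, and neither the APL3 nor the BAM3 window holds any of the 7 motifs.

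Expressed per gene length, the starch genes spanned a wide range. GWD1 (AT1G10760), the kinase that starts starch breakdown, had the highest mean over all 18 samples at 266.5 TPM, followed by APL1 at 213.1, PHS2 at 192.8, APS1 at 192.7 and PWD at 162.4 TPM. At the low end GBSS1, GPT2 and AMY1 averaged 2.01, 1.85 and 0.937 TPM. BAM5 (AT4G15210), a beta-amylase located outside the chloroplast, was the gene that missed the filter. It had 0.43, 0.39 and 0.26 TPM in Si samples at 28°C against 0.06, 0.05 and 0.05 TPM in CK samples at 28°C, and at most 0.12 TPM in any sample at 22 or 25°C. The summed TPM of all 38 genes was 2569 ± 137 in Si against 2361 ± 163 in CK at 22°C, 2614 ± 70.0 against 2333 ± 54.9 at 25°C, and 2379 ± 24.0 against 2366 ± 49.4 at 28°C (SD, n = 3 each). The groups overlapped at 22 and 28°C and were apart at 25°C.

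Few starch genes passed the study's call of an adjusted p of at most 0.05 with a log2 fold change beyond 1, here applied with limma to log2(TPM + 1) over all 20044 genes. At 22°C, 1 of the 37 rose (APL3), where 8% of all tested genes did, and 1 fell (BAM4), where 1.34% did. At 25°C the same 2 genes were called, beside 9.43% and 2.69% of all genes. At 28°C APL3 and GPT2 rose and AMY1, which entered the test only through its high level in CK at 28°C, fell, beside 7.95% and 1.72%. On the adjusted p alone, 17 genes were higher and 4 lower in Si at 22°C (47.4% and 10.7% of all genes), 21 were higher and 8 lower at 25°C (47.8% and 13.5%), and 14 were higher and 11 lower at 28°C (43.5% and 11.9%). Taken as shares of the 37, the higher genes were near the background at 22°C, above it at 25°C and below it at 28°C, and the lower genes were near it at 22°C and above it at 25 and 28°C.

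These splits depend on the scaling. At the successive temperatures the median log2 fold change of Si over CK across all tested genes was 0.26, 0.26 and 0.22, whereas across the 37 starch genes it was 0.17, 0.24 and 0.04. After median-of-ratios scaling, which sets the bulk of genes near 0, the starch gene medians were −0.10, −0.04 and −0.20, and the splits became 6 higher and 14 lower at 22°C (24.6% and 25.4% of all genes), 14 and 12 at 25°C (28.1% and 27.4%), and 7 and 19 at 28°C (23.5% and 24%). Over 9 fits (3 temperatures by TPM as deposited, median-of-ratios and quantile scaling), APL3, BAM3 and ISA3 were higher in all 9, and GWD1 and BAM4 were lower in all 9. For 6 genes opposite signs passed in different fits. Only for PGM1, at 22 and 25°C, did this happen between scalings at the same temperature, and for the others it was between temperatures. Changes below about 0.26 are read here only relative to the median shift of all tested genes.

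**Figure D1:**
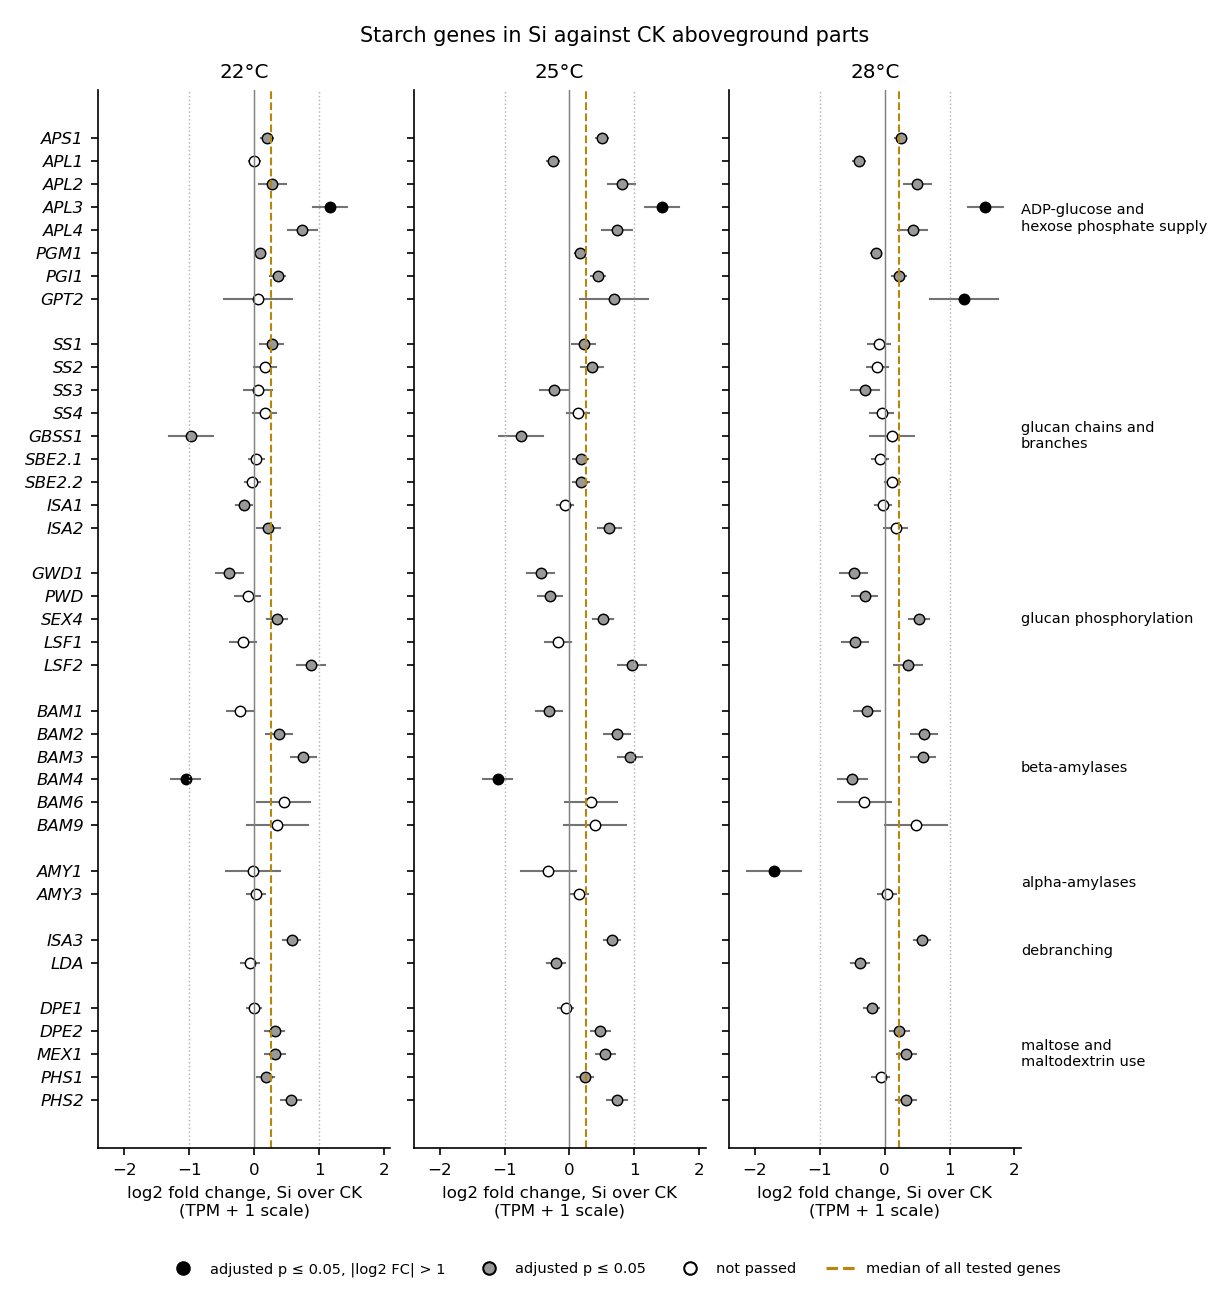
Log2 fold change of Si over CK for the 37 tested starch genes at 22, 25 and 28°C, on the log2(TPM + 1) scale, with 95% confidence intervals from limma as lines. Black points passed an adjusted p of at most 0.05 and a log2 fold change beyond 1 (dotted lines), grey points passed the adjusted p, white points passed neither, and the dashed line is the median of all tested genes (0.26, 0.26 and 0.22). APL3 lies furthest right at every temperature, BAM4 furthest left at 22 and 25°C, and AMY1 furthest left at 28°C.

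Among the genes that supply ADP-glucose, the large regulatory subunits of ADP-glucose pyrophosphorylase shifted against each other. APL3 (AT4G39210), a large subunit known from sink organs and from its induction by sugars, had 10.8, 8.72 and 7.11 TPM in Si against 3.37, 3.67 and 3.01 TPM in CK at 22°C. At 25°C it had 11.9, 13.2 and 12.2 TPM in Si against 3.97, 3.91 and 4.06 TPM in CK. At 28°C it had 21.1, 16.6 and 18.7 TPM in Si against 5.54, 5.08 and 6.66 TPM in CK. Every Si sample lay above every CK sample of any temperature. On the TPM + 1 scale, where folds are smaller than ratios of TPM, the increase was 2.25-fold at 22°C (log2 1.17 ± 0.13 SE, adjusted p = 1.9e-06). It was 2.69-fold at 25°C (log2 1.43, adjusted p = 1.6e-07) and 2.93-fold at 28°C (log2 1.55, adjusted p = 1.4e-07). At 22°C its log2 change was 0.93 after median-of-ratios scaling and 0.74 after quantile normalization, below the fold threshold but with the adjusted p still passed.

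APL1 (AT5G19220), the major large subunit of leaves, went the other way as it grew warmer. It had 245, 244 and 234 TPM in Si against 247, 235 and 238 TPM in CK at 22°C, where the groups overlapped. At 25°C it had 203, 195 and 185 TPM in Si against 241, 228 and 226 TPM in CK, and at 28°C 166, 159 and 157 TPM in Si against 212, 212 and 209 TPM in CK. The groups were apart at both higher temperatures. The log2 change was 0.01 at 22°C (adjusted p = 0.93; −0.29 and passed after median-of-ratios scaling), −0.25 at 25°C (adjusted p = 0.00012) and −0.39 at 28°C (adjusted p = 2.6e-06), and the Si effect differed from that at 22°C by −0.26 ± 0.06 at 25°C (adjusted p = 0.017) and by −0.40 ± 0.06 at 28°C (adjusted p = 0.00067).

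APL2 and APL4, the remaining large subunits, were higher in Si at all temperatures on the adjusted p. APL2 had 10.2, 8.22 and 8.68 TPM in Si against 7.49, 7.68 and 6.5 TPM in CK at 22°C. It had 11.9, 10.8 and 11.2 TPM in Si against 6.15, 5.58 and 6.37 TPM at 25°C, and 11.3, 12.4 and 12.6 TPM against 7.48, 7.88 and 9.47 TPM at 28°C. Its Si and CK samples did not overlap at any temperature, and its log2 changes were 0.28, 0.81 and 0.51. Its effect at 25°C exceeded that at 22°C by 0.52 ± 0.13 (adjusted p = 0.026), although at 22°C the sign turned to −0.095 after quantile normalization. The interaction no longer passed when any of 6 samples was left out (log2 from 0.47 without Si replicate 2 at 22°C). After median-of-ratios scaling APL2 was at 0.019 at 22°C and did not pass, and after quantile normalization it did not pass at 28°C (0.20, adjusted p = 0.075). APL4 changed by 0.74, 0.74 and 0.43, of which the value at 28°C did not pass after median-of-ratios (0.22, adjusted p = 0.11) or quantile (0.062, adjusted p = 0.67) scaling.

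APL1 still made up most of the APL transcripts, but its share of the summed APL1 to APL4 TPM, a ratio within each sample that factors between samples such as median-of-ratios cannot alter, was smaller in Si. It was 91.1 ± 0.829% in Si against 94.6 ± 0.411% in CK at 22°C, 86.6 ± 0.394% against 94.5 ± 0.395% at 25°C, and 81.0 ± 0.726% against 91.8 ± 0.914% at 28°C (SD, n = 3 each), with no overlap between Si and CK at any temperature. The share of APL3 was 3.35% in Si against 1.32% in CK at 22°C, 5.54% against 1.63% at 25°C, and 9.47% against 2.51% at 28°C. This ratio was chosen after the values were seen and is given without a test.

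APS1 (AT5G48300), the catalytic small subunit that pairs with every APL protein, had 202, 194 and 189 TPM in Si against 170, 164 and 175 TPM in CK at 22°C. At 25°C it had 231, 231 and 231 TPM in Si against 165, 168 and 156 TPM in CK, and at 28°C 215, 216 and 216 TPM against 187, 182 and 175 TPM. Si lay above CK throughout, by log2 0.20, 0.50 and 0.25 (adjusted p = 0.00077, 7.3e-08 and 0.00012), but after median-of-ratios scaling the difference was −0.10 at 22°C and 0.0066 at 28°C, neither passed, and after quantile normalization it did not pass at 22°C (0.10, adjusted p = 0.078). The effect at 25°C exceeded that at 22°C by 0.30 ± 0.06 (adjusted p = 0.0057). The APS1 TPM per summed APL TPM was 0.737 in Si against 0.671 in CK at 22°C, 1.03 against 0.666 at 25°C, and 1.09 against 0.790 at 28°C.

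GPT2 (AT1G61800), which imports hexose phosphate into plastids, had 0.92, 1.67 and 0.16 TPM in Si against 0.87, 0.86 and 0.49 TPM in CK at 22°C. At 25°C it had 1.47, 1.91 and 1.98 TPM in Si against 0.82, 0.41 and 1.01 TPM in CK, and at 28°C 6.3, 4.94 and 4.4 TPM against 2.22, 1.39 and 1.41 TPM. The groups overlapped at 22°C and were apart at 25 and 28°C. Its log2 change was 0.07 at 22°C (adjusted p = 0.84), 0.68 at 25°C (adjusted p = 0.025) and 1.22 at 28°C (adjusted p = 0.00067), and the effect at 28°C exceeded that at 22°C by 1.15 ± 0.35 (adjusted p = 0.033). The interaction rests on levels near 1 TPM at 22°C. It was lost with a pseudocount of 0.1 (adjusted p = 0.13) or when any of 7 samples was left out (0.83 without Si replicate 3 at 22°C), and the call at 28°C fell below the fold threshold after quantile normalization (0.80). At 25°C GPT2 did not pass after median-of-ratios (0.53, adjusted p = 0.079) or quantile (0.30, adjusted p = 0.31) scaling.

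PGM1 and PGI1 interconvert hexose phosphates in the chloroplast. PGM1 had 132, 126 and 130 TPM in Si against 119, 120 and 125 TPM in CK at 22°C. It had 138, 133 and 134 TPM in Si against 119, 123 and 119 TPM at 25°C, and 110, 108 and 108 TPM against 116, 121 and 121 TPM at 28°C. Si lay above CK at the lower temperatures and below it at 28°C. The changes were 0.09, 0.16 and −0.13. After quantile normalization PGM1 passed only at 28°C, as lower. After median-of-ratios scaling the changes were −0.20, −0.13 and −0.37, and all passed as lower. The effect at 28°C was lower than at 22°C by −0.22 ± 0.05 (adjusted p = 0.0088), which that scaling reduced to −0.17 (adjusted p = 0.077). PGI1 changed by 0.37, 0.44 and 0.22. After median-of-ratios scaling it did not pass at 22°C (0.072) or at 28°C (−0.017), and after quantile normalization it did not pass at 28°C (0.092).

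Of the 9 genes that build and shape the glucan chains, none passed the fold threshold as TPM. On the adjusted p as TPM, 2 were higher and 2 lower in Si at 22°C, 5 and 2 at 25°C, and 0 and 1 at 28°C. Of all genes 47.4% and 10.7%, 47.8% and 13.5%, and 43.5% and 11.9% were. GBSS1 (AT1G32900), the granule-bound synthase that makes amylose and is known to peak in the morning, had 0.84, 1.07 and 1.39 TPM in Si against 4.13, 3.13 and 2.26 TPM in CK at 22°C. At 25°C it had 0.98, 1.41 and 1.18 TPM in Si against 2.65, 2.45 and 2.91 TPM in CK, and at 28°C 2.05, 2.52 and 1.69 TPM against 1.93, 1.94 and 1.63 TPM. Si lay below CK at 22 and 25°C and overlapped with it at 28°C. The log2 change was −0.97 at 22°C (adjusted p = 0.00010), −0.75 at 25°C (adjusted p = 0.00083) and 0.12 at 28°C (adjusted p = 0.56), and the effect at 28°C exceeded that at 22°C by 1.09 ± 0.23 (adjusted p = 0.0047). The change at 22°C passed the fold threshold with a pseudocount of 0.5 (−1.18) or after median-of-ratios (−1.19) or quantile (−1.38) scaling.

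The soluble starch synthases are SS1 to SS4, and the branching enzymes are SBE2.1 and SBE2.2. As TPM these and the isoamylase ISA1 differed from CK by at most 0.35 in either direction on the log2 scale. After median-of-ratios scaling SS3 was at −0.52 at 25°C and −0.54 at 28°C. ISA1 was then at −0.44, −0.35 and −0.26, and all of these passed. SS1, SS2, SS4 and SBE2.1 also passed as lower at 28°C, beside 24% of all genes, while GBSS1, SBE2.2 and ISA2 did not. After quantile normalization SS2, SS3, SBE2.1 and ISA1 passed as lower at 28°C, beside 5275 of all 20044 genes. SS1, which elongates short chains, had 86.0, 81.7 and 73.3 TPM in Si against 67.6, 59.1 and 73.0 TPM in CK at 22°C. It had 82.1, 79.1 and 73.7 TPM in Si against 63.8, 72.0 and 65.8 TPM at 25°C, and 70.3, 69.9 and 64.1 TPM against 77.9, 69.0 and 70.0 TPM at 28°C. Only at 28°C did the groups overlap. Its differences were 0.27, 0.22 and −0.08, of which the last did not pass as TPM. After median-of-ratios scaling SS1 was at −0.024 and −0.070 at 22 and 25°C, and passed as lower at 28°C (−0.32). The effect at 28°C differed from that at 22°C by −0.35 ± 0.12 (adjusted p = 0.047), a call that was lost when any of 15 samples was left out (from −0.27 without CK replicate 2 at 22°C). ISA2, the noncatalytic partner of the isoamylase ISA1, had 18.5, 16.8 and 15.6 TPM in Si against 15.0, 13.3 and 14.8 TPM in CK at 22°C. Its levels were 28.1, 26.9 and 22.9 TPM in Si against 17.2, 16.0 and 16.3 TPM at 25°C, and 25.1, 25.6 and 22.5 TPM against 22.3, 21.6 and 20.8 TPM at 28°C. Si was above CK in every pair of groups, by 0.22, 0.62 and 0.17, of which the value at 22°C turned to −0.058 and −0.083 after median-of-ratios and quantile scaling and that at 28°C did not pass (adjusted p = 0.091). The interaction at 25°C was 0.40 ± 0.11 (adjusted p = 0.041) and was lost when any of 10 samples was left out (from 0.34 without Si replicate 1 at 25°C).

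**Figure D2:**
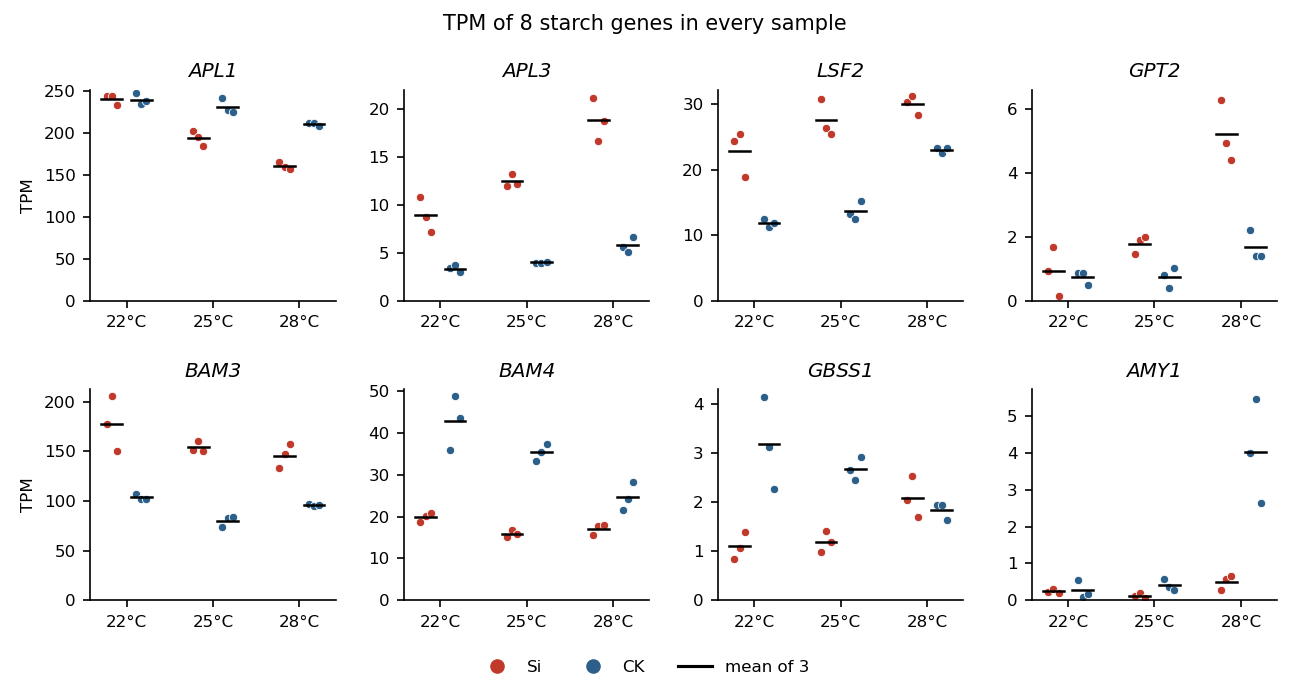
TPM of 8 starch genes in every sample, with Si in red left of CK in blue at each temperature and a black line at the mean of 3 samples. APL3 and BAM3 lie higher and BAM4 lies lower in every Si sample than in the CK samples of the same temperature, and AMY1 exceeds 2 TPM only in CK at 28°C.

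Genes of the phosphorylation cycle moved in opposite directions. Of the glucan kinases, GWD1 was lower in Si at every temperature and PWD at 25 and 28°C. GWD1 had 261, 257 and 224 TPM in Si against 362, 269 and 341 TPM in CK at 22°C. Its levels were 243, 247 and 219 TPM in Si against 322, 346 and 298 TPM at 25°C, and 206, 190 and 191 TPM against 294, 277 and 250 TPM at 28°C. No Si sample reached a CK sample of its temperature, and the log2 changes were −0.38, −0.44 and −0.48 (adjusted p = 0.0042, 0.0013 and 0.00083). PWD, the kinase that acts after GWD1, fell by 0.29 and 0.31 on the log2 scale at 25 and 28°C (adjusted p = 0.0092 and 0.0077), while the difference of −0.10 at 22°C did not pass (adjusted p = 0.35) unless scaled by median-of-ratios (−0.40, adjusted p = 0.0014).

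The catalytic phosphatases LSF2 and SEX4 were higher in Si at each temperature as TPM, and not in every fit under the other scalings. LSF2 (AT3G10940), a glucan phosphatase, had 24.3, 25.4 and 18.9 TPM in Si against 12.4, 11.3 and 11.9 TPM in CK at 22°C. At 25°C it had 30.7, 26.4 and 25.4 TPM in Si against 13.2, 12.5 and 15.2 TPM in CK, and at 28°C 30.3, 31.2 and 28.3 TPM against 23.4, 22.5 and 23.3 TPM. The groups were apart at each temperature, and the gap was smallest at 28°C, where CK samples were higher than at 22 and 25°C. The log2 changes were 0.88, 0.96 and 0.36 (adjusted p = 3.6e-06, 9.9e-07 and 0.0066), and the effect at 28°C was lower than at 22°C by −0.52 ± 0.14 (adjusted p = 0.021). After quantile normalization the difference was −0.40 (adjusted p = 0.059), and leaving out any of 4 samples also ended the call (−0.44 without Si replicate 2 at 22°C). At 28°C LSF2 itself did not pass after median-of-ratios (0.13, adjusted p = 0.30) or quantile (0.17, adjusted p = 0.18) scaling. SEX4, the other active phosphatase, changed by 0.36, 0.51 and 0.53, and at 22°C did not pass after median-of-ratios scaling (0.066, adjusted p = 0.46). LSF1, a related protein without catalytic activity in Arabidopsis, had differences of −0.17 and −0.18 that did not pass at 22 and 25°C (adjusted p = 0.14 and 0.12) and fell by 0.46 on the log2 scale at 28°C (adjusted p = 0.00089). It passed as lower at 22 and 25°C too after median-of-ratios (−0.44 and −0.44) and quantile (−0.49 and −0.51) scaling.

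Beta-amylases also moved in opposite directions. BAM3 (AT4G17090), the main enzyme releasing maltose in leaves, had 177, 206 and 150 TPM in Si against 107, 102 and 102 TPM in CK at 22°C. At 25°C it had 152, 160 and 150 TPM in Si against 74.0, 82.8 and 83.7 TPM in CK, and at 28°C 133, 147 and 157 TPM against 97.1, 95.05 and 96.3 TPM. Every Si sample was above every CK sample. On the TPM + 1 scale the increase was 1.69-fold at 22°C (log2 0.76), 1.91-fold at 25°C (log2 0.94) and 1.51-fold at 28°C (log2 0.59), with adjusted p = 4.6e-06, 3.7e-07 and 5.3e-05. BAM2 changed by 0.39, 0.73 and 0.60, of which the value at 22°C did not pass after median-of-ratios (0.10, adjusted p = 0.42) or quantile (0.14, adjusted p = 0.29) scaling.

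BAM4 (AT5G55700), a plastid protein without catalytic activity that is nevertheless needed for normal starch breakdown, had 18.6, 20.1 and 20.9 TPM in Si against 36.1, 48.8 and 43.5 TPM in CK at 22°C. At 25°C it had 15.1, 16.9 and 15.9 TPM in Si against 33.4, 35.6 and 37.4 TPM in CK, and at 28°C 15.7, 17.9 and 17.96 TPM against 21.7, 24.3 and 28.4 TPM. All 9 Si samples were below all 9 CK samples, and the CK level itself was lowest at 28°C. On the TPM + 1 scale BAM4 was 2.08-fold lower in Si at 22°C (log2 −1.06 ± 0.11 SE, adjusted p = 9.7e-07), 2.15-fold lower at 25°C (log2 −1.10, adjusted p = 3.9e-07), and changed by log2 −0.50 at 28°C (adjusted p = 0.00094). The effect at 28°C differed from that at 22°C by 0.56 ± 0.15 (adjusted p = 0.019). Without CK replicate 2 at 22°C the change there was −0.96, short of the fold threshold.

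The TPM of BAM3 per TPM of BAM4, again unaltered by factors between samples and chosen after the values were seen, was 8.97 ± 1.60 in Si against 2.47 ± 0.459 in CK at 22°C, 9.67 ± 0.320 against 2.26 ± 0.0599 at 25°C, and 8.50 ± 0.244 against 3.93 ± 0.540 at 28°C (SD, n = 3 each). The lowest Si ratio, 7.17, stood above the highest CK ratio, 4.48. Of the remaining beta-amylases, BAM1 is an active plastid enzyme known from guard cells and stressed leaves. It fell by 0.32 and 0.27 on the log2 scale at 25 and 28°C (adjusted p = 0.0081 and 0.026). At 28°C it no longer passed without Si replicate 1 or 3, or without CK replicate 1 or 2, of that temperature. At 22°C the difference of −0.21 did not pass as TPM (adjusted p = 0.068) but passed under the other scalings (−0.50 and −0.41). BAM6 and BAM9 did not pass at any temperature as TPM. BAM6 was lower and passed at 28°C after median-of-ratios (−0.54, adjusted p = 0.031) and quantile (−0.61, adjusted p = 0.017) scaling.

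**Figure D3:**
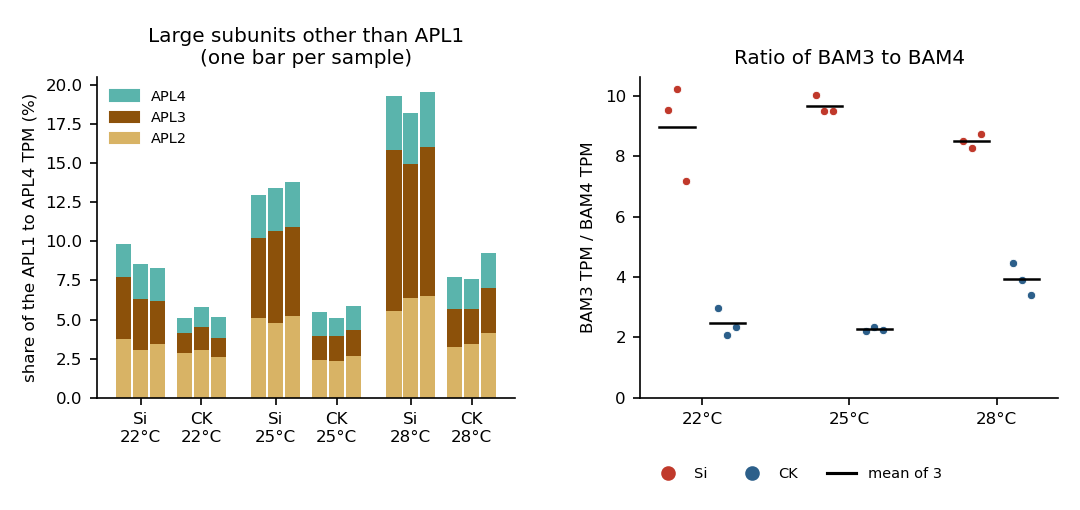
Left, the shares of APL2, APL3 and APL4 in the summed APL1 to APL4 TPM (percent), 1 bar per sample, the rest being APL1, and right, the ratio of BAM3 TPM to BAM4 TPM with a black line at the mean of 3 samples, Si left of CK at each temperature. The 3 minor subunits together hold the largest share in Si at 28°C, where APL1 is at 81.0%, and the BAM3 to BAM4 ratio is at least 7.17 in every Si sample and at most 4.48 in every CK sample.

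AMY1 (AT4G25000), a secreted alpha-amylase known from senescing and stressed leaves, was below 1 TPM except in CK at 28°C. It had 0.23, 0.31 and 0.21 TPM in Si against 0.56, 0.10 and 0.18 TPM in CK at 22°C, and 0.11, 0.21 and 0.07 TPM against 0.59, 0.37 and 0.29 TPM at 25°C. At 28°C it had 0.29, 0.57 and 0.66 TPM in Si against 4.00, 5.46 and 2.65 TPM in CK. The groups overlapped at 22°C and were apart at 25°C and, far more widely, at 28°C. AMY1 passed the filter only through the 3 CK samples at 28°C, where it is high, so that its calls are not independent of the filter and were taken from the fit with no filter on any gene. There the log2 change of Si over CK was −1.71 ± 0.18 at 28°C (adjusted p = 3.4e-06), against −0.02 at 22°C and −0.32 at 25°C, which did not pass. In that fit the interaction at 28°C was −1.69 ± 0.25 (adjusted p = 0.00086), and the rise of CK at 28°C over CK at 22°C was 1.95 ± 0.18 (adjusted p = 2.6e-06). AMY3, the chloroplast alpha-amylase, had 75.5 to 98.7 TPM over all samples and did not pass at any temperature as TPM, but was lower and passed at 22 and 28°C after median-of-ratios scaling (−0.26 and −0.20).

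CASP1, a root endodermis marker, moved alongside AMY1. It had 1.41, 1.39 and 1.62 TPM in Si against 4.83, 6.73 and 3.89 TPM in CK at 28°C, a change of −1.29 (adjusted p = 0.00027). Of the 8 root markers 2 passed the filter, and the 8 summed to 287 to 331 TPM in Si against 152 to 225 TPM in CK at 22°C, to 507 to 552 TPM against 261 to 274 TPM at 25°C, and to 875 to 888 TPM against 747 to 777 TPM at 28°C. Nearly all of it came from PYK10, which was higher in Si at 22 and 25°C (log2 0.71 and 1.01), where AMY1 did not pass, and had 878, 874 and 886 TPM in Si against 742, 770 and 773 TPM in CK at 28°C without passing (adjusted p = 0.085). The root hair markers COBL9, EXPA7, PRP3, RHD6 and LRX1 were at 0.65 TPM or less in every sample, and EXPA7, RHD6, IRT1 and LRX1 were listed at 0 in all 3 CK samples at 28°C. The part of root tissue in the values of AMY1 and the other starch genes was not tested.

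The debranching enzymes that act in breakdown parted as well. ISA3, which removes branches from the phosphorylated granule, was higher in Si by 0.58, 0.65 and 0.57 (adjusted p = 1.1e-06, 2.0e-07 and 1.4e-06), with 47.0 to 50.6 TPM in Si against 30.5 to 35.0 TPM in CK at 22°C and 63.3 to 66.3 TPM against 41.5 to 45.0 TPM at 28°C. LDA, the limit dextrinase, had 38.5, 39.5 and 40.8 TPM in Si against 42.2, 36.7 and 45.7 TPM in CK at 22°C. Its levels were 36.7, 35.0 and 34.6 TPM in Si against 41.6, 41.7 and 39.2 TPM at 25°C, and 28.4, 28.3 and 27.2 TPM against 35.5, 36.6 and 38.1 TPM at 28°C. The groups overlapped at 22°C (log2 difference −0.06, adjusted p = 0.42, but −0.35 and −0.26 and passed after median-of-ratios and quantile scaling), and LDA fell by 0.20 and 0.38 on the log2 scale in Si at 25 and 28°C (adjusted p = 0.013 and 0.00014). Its effect at 28°C differed from that at 22°C by −0.32 ± 0.09 (adjusted p = 0.025), which was lost after median-of-ratios scaling (−0.26, adjusted p = 0.061) or without any of 3 samples (−0.29 without CK replicate 3 at 28°C).

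Among the genes for maltose and maltodextrin use, the exporter and the cytosolic enzymes were higher in Si at each temperature as TPM, but after median-of-ratios scaling PHS2 (0.091), MEX1 (0.097) and DPE2 (−0.019) did not pass at 28°C, nor did MEX1 (0.037) and DPE2 (0.021) at 22°C. After quantile normalization PHS2 passed at each temperature and MEX1 and DPE2 only at 25°C. PHS2, the cytosolic glucan phosphorylase, had 213 to 261 TPM in Si against 142 to 175 TPM in CK at 22°C. It had 242 to 254 TPM in Si against 146 to 151 TPM at 25°C, and 203 to 208 TPM against 163 to 164 TPM at 28°C, and changed by 0.56, 0.73 and 0.33 (adjusted p = 9.5e-06, 4.9e-07 and 0.0010). DPE2, the cytosolic enzyme that takes up maltose, changed by 0.32, 0.47 and 0.22, and the exporter MEX1 by 0.32, 0.55 and 0.33. Of the plastid enzymes, PHS1 had differences of 0.18, 0.24 and −0.06, of which the last did not pass as TPM. After median-of-ratios scaling PHS1 was at −0.12 and −0.044 at 22 and 25°C, and passed as lower at 28°C (−0.31). After quantile normalization it passed only at 25°C (0.17). DPE1 fell by 0.20 on the log2 scale at 28°C (adjusted p = 0.0047). At 22 and 25°C DPE1 did not pass as TPM and passed as lower after median-of-ratios (−0.29 and −0.35) and quantile (−0.15 and −0.16) scaling. The summed TPM of these 5 genes was 529 ± 40.0 in Si against 417 ± 34.6 in CK at 22°C, 564 ± 7.90 against 411 ± 2.26 at 25°C, and 488 ± 8.69 against 440 ± 5.37 at 28°C (SD, n = 3 each), without overlap.

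Formal tests of the difference between temperatures gave, on the adjusted p, 3 starch genes with a higher Si effect at 25°C than at 22°C (APS1, APL2 and ISA2, beside 4.37% of all genes) and 1 with a lower effect (APL1, beside 5.36%). At 28°C relative to 22°C, 3 were higher (GPT2, GBSS1 and BAM4, beside 6.92%) and 6 lower (APL1, PGM1, SS1, LSF2, AMY1 and LDA, beside 10.2%). AMY1 entered this test only through its high level in CK at 28°C. With no filter on any gene, 4 were higher and 5 lower, beside 1416 and 1930 of 26122 genes. Both interactions use the same samples at 22°C. Temperature itself moved few starch genes past the fold threshold. In Si, 0 of 37 were called at 25°C against 22°C (0.843% of all genes rose and 1.32% fell), and APL3 (log2 1.01, adjusted p = 1.5e-05) and GPT2 (log2 1.77, adjusted p = 4.1e-05) rose at 28°C against 22°C (5.27% rose and 1.37% fell). In CK, 0 were called at 25°C (0.424% and 0.145%) and AMY1 alone at 28°C (4.24% and 0.649%), the group through which it passed the filter. Without the fold threshold limma found at 25°C 7 higher and 1 lower in Si (16.6% and 7.06% of all genes) and 1 and 1 in CK (8.74% and 2.4%), shares near or below those of all genes, and at an unadjusted p under 0.05 it found 18 in Si and 9 in CK. The share of all genes at that unadjusted p was not counted, so the 18 and 9 have no background. The rise of APL3 in Si fell short of the fold threshold without Si replicate 3 at 22°C (0.88), without Si replicate 1 at 28°C (0.93) and after either scaling (0.81 and 0.82).

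**Figure D4:**
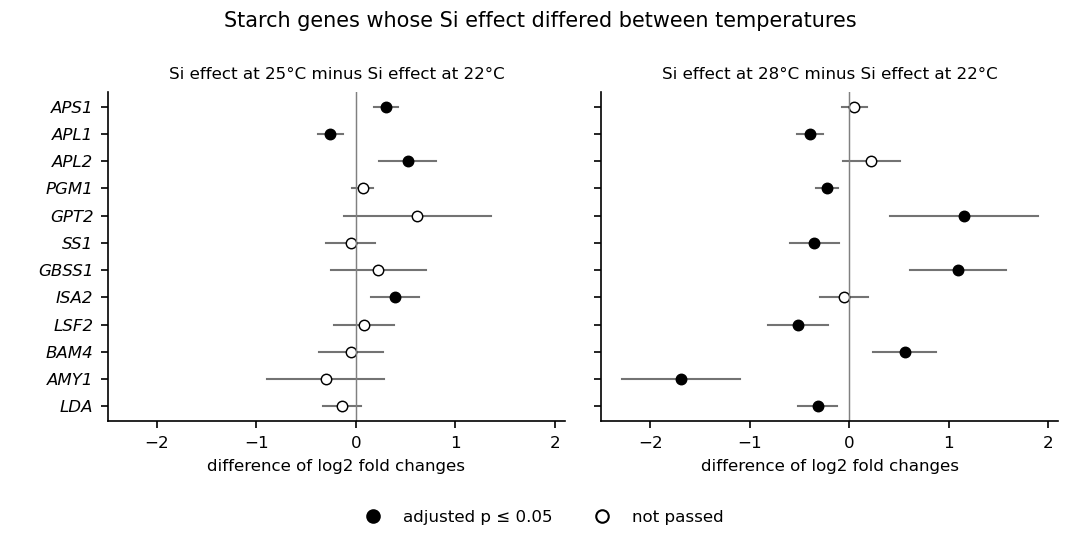
Difference between the Si effect at 25°C (left) or 28°C (right) and that at 22°C, in log2 units, for the 12 starch genes that passed in at least 1 of the 2 tests, with 95% confidence intervals from limma. Black points passed an adjusted p of at most 0.05. AMY1 shows the most negative difference (−1.69) and GPT2 and GBSS1 the most positive (1.15 and 1.09), all at 28°C. AMY1 passed the filter on low TPM only through CK at 28°C.

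Genes next to this pathway were counted from lists chosen by function. Of 17 further starch genes, such as the amylase AMY2 and the glucose exporter pGlcT, none passed the fold threshold, and 7 were higher and 3 lower on the adjusted p at 22°C, 7 and 2 at 25°C, and 4 and 2 at 28°C (12, 10 and 6 of 17 at an unadjusted p under 0.05 in limma). On the adjusted p, 47.4% and 10.7%, 47.8% and 13.5%, and 43.5% and 11.9% of all genes were higher and lower at these temperatures. In the interaction test 2 of the 17 had a higher and 3 a lower Si effect at 28°C than at 22°C. Of all genes 6.92% and 10.2% did. At 25°C relative to 22°C 0 of the 17 passed (3 at an unadjusted p under 0.05 in limma). The share of all genes at the unadjusted p was not counted. Of 18 genes of sucrose synthesis and cleavage, 13 passed the filter. CINV2, a cytosolic invertase, rose at each temperature (log2 1.07, 1.44 and 1.15), whereas its relative CINV1 had 68.1, 79.5 and 77.5 TPM in Si against 118, 152 and 150 TPM in CK at 22°C and fell by 1.06 on the log2 scale at 25°C. UGP1, which makes UDP-glucose, rose at 25°C (log2 1.22), and cFBP, the cytosolic fructose bisphosphatase of sucrose synthesis, fell by 1.07 at 25°C and by 1.04 at 28°C on the log2 scale.

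Several starch genes follow the circadian clock, and clock transcripts also differed between Si and CK. The dawn genes CCA1 and LHY were at 1.40 TPM or less in all 18 samples, while the evening gene TOC1 had at least 129.5 TPM. Of 11 clock genes 9 passed the filter, and 1 was higher and 6 lower in Si at 22°C, 2 and 6 at 25°C, and 2 and 6 at 28°C, beside 10.7%, 13.5% and 11.9% of all genes that were lower and 47.4%, 47.8% and 43.5% that were higher. PRR7 had 56.2, 59.5 and 51.2 TPM in Si against 172, 159 and 192 TPM in CK at 22°C, with log2 changes of −1.63, −2.09 and −1.38 at 22, 25 and 28°C. The hour of harvest of each group is not given in the sources used here, and the part of the clock in the starch gene values was not tested.

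Markers of the tissue moved too. The 6 leaf mesophyll markers summed to 38609 to 39312 TPM in Si against 44447 to 48143 TPM in CK at 22°C, to 33988 to 36379 TPM against 37152 to 38720 TPM at 25°C, and to 27084 to 29613 TPM against 32259 to 33929 TPM at 28°C, with LHCB1.3, LHCB2.1 and LHCB2.3 lower in Si at 22°C. On the adjusted p, 3 of the 6 were lower and 1 higher at 22°C, 3 and 1 at 25°C, and 3 and 0 at 28°C. Of all genes 10.7%, 13.5% and 11.9% were lower and 47.4%, 47.8% and 43.5% higher. The 6 guard cell markers summed to 91.3 to 100.5 TPM in Si against 92.1 to 106.9 TPM in CK at 22°C. At 25°C they summed to 96.9 to 100.5 TPM in Si against 110.7 to 122.1 TPM in CK. At 28°C the sums were 76.9 to 91.4 TPM in Si against 120.9 to 130.0 TPM in CK. On the adjusted p, 2 of these 6 were higher and 1 lower at 22°C, 1 and 2 at 25°C, and 0 and 3 at 28°C, beside the same shares of all genes. The 6 phloem markers overlapped between Si and CK at 22°C and lay higher in Si at 25 and 28°C. Of these 6, 1 passed the fold threshold as higher at 25°C, where 9.43% of all genes did. The number of cells of a type, RNA per cell and regulation of the marker genes themselves cannot be told apart in whole aboveground parts. The part of tissue makeup in the starch gene values was not tested.

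Another annotated gene overlaps 15 of the 38 starch genes, 12 of them on the opposite strand, and the strandedness of the libraries is not given in the sources used here. The partner of BAM4, AT5G55710, had log2 differences of 0.23, 0.50 and 0.14 in Si, opposite in sign to BAM4, and that of AMY1 on the same strand, AT4G24990, had −0.12, −0.04 and 0.28. LSF1, lower at 28°C, overlaps AT3G01500 on the same strand, which had 0.07, −0.23 and −0.77. BAM2, higher in Si, overlaps AT4G00500 on the opposite strand, which had 0.64, 0.63 and 0.65. The part of partner reads in these values was not tested, and the partners of the other genes are not listed. The partners of BAM3, AT4G17085 and AT4G06665, had positive differences, as BAM3 did, of 0.40, 0.70 and 0.89 and of 0.60, 0.82 and 0.60 (the first with an adjusted p of 0.15 in limma), so that reads of these genes could not be told apart if the counting ignored strand.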

How the data were processed

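The aboveground parts of 18 Col-0 samples (6 groups of 3) were analysed from the gene TPM table the authors deposited. By the study's methods, clean reads were mapped to TAIR10 and quantified with RSEM, whereas the sample protocols list HISAT2 and StringTie. TPM keeps no depth, so read numbers and counting errors are unknown, and precision rests on 3 replicates a group. Genes that reached 1 TPM in 3 or more samples were kept and transformed to log2(TPM + 1). A model of the 6 groups with a variance trend and 12 residual degrees of freedom was fitted in limma (version 3.58.1, R version 4.3.3), with two-sided tests and Benjamini-Hochberg adjustment over all tested genes. The count-based DESeq2 of the study could not be applied to TPM. The fit was tested on simulated data. P-values weigh a difference between groups against the spread between replicates, pooled over the 6 groups and moderated by limma.

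Groups came from the sample titles. Genes were called between groups when the adjusted p was 0.05 or less and the log2 fold change was beyond 1 in size, and in interactions on the adjusted p alone. Values in every sample are given for starch genes called in any comparison between Si and CK, in an interaction or between 28 and 22°C, and the others are summarised. From the other lists up to 3 called genes per comparison are named by size of change. GWD1, BAM3, CCA1, LHY, TOC1 and PYK10 were also given, and the APL share and the BAM3 to BAM4 ratio computed, after their values were seen. The starch genes and lists were chosen with earlier results of these data known. Alternatives were pseudocounts of 0.1 and 0.5, no filter, a filter at 5 TPM, median-of-ratios and quantile scaling, only the groups compared, a replicate block, no fold threshold and each sample left out. Gene positions and promoter windows came from the RefSeq annotation of TAIR10.1. The deposited table carries no coordinates.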

Additional observations from a re-analysis of the deposited data

Results flagged for a closer look

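For 12 starch genes the Si effect differed between temperatures by the interaction test of limma (adjusted p over all tested genes), in 13 results that are gathered here. At 25°C relative to 22°C the differences in log2 fold change were 0.40 for ISA2, 0.52 for APL2, −0.26 for APL1 and 0.30 for APS1. At 28°C relative to 22°C they were 1.09 for GBSS1, 1.15 for GPT2, −0.52 for LSF2, −1.69 for AMY1, −0.32 for LDA, −0.40 for APL1, −0.35 for SS1, −0.22 for PGM1 and 0.56 for BAM4. Those for APL1 at both temperatures, APS1, GBSS1, PGM1 and BAM4 passed whichever sample was left out, and of these PGM1 did not pass after median-of-ratios scaling (−0.17). AMY1 entered the test only through its high level in CK at 28°C. Groups of 3 samples allow no search for single outlying samples.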

How the results depend on the processing

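Counts of starch genes called, given here for Si against CK at 22, 25 and 28°C unless other comparisons are named, moved most with the fold threshold. Without it 21, 29 and 25 genes were called, 20, 26 and 26 with median-of-ratios scaling added, and 17, 27 and 23 with quantile normalization added. The settings with an added scaling were chosen after seeing the data. With quantile normalization 8 were higher and 9 lower at 22°C, 15 and 12 at 25°C, and 8 and 15 at 28°C. Of all 20044 genes, 4348 and 5011, 5385 and 5332, and 4422 and 5275 were. For 25 against 22°C the same 3 settings gave 8, 9 and 9 genes in Si and 2, 6 and 2 in CK, and for 28 against 22°C they gave 24, 25 and 24 in Si and 16, 25 and 15 in CK. In Si at 25°C these were 7 higher and 1 lower, 4 and 5, and 5 and 4. Of all 20044 genes, 3332 and 1416, 1718 and 2238, and 2313 and 1949 were. CK there had 1 and 1, 0 and 6, and 0 and 2, beside 1752 and 481, 841 and 1150, and 626 and 654. Si at 28°C had 13 and 11, 6 and 19, 9 and 15, beside 7820 and 2100, 3786 and 4040, 4000 and 4123. CK there had 12 and 4, 7 and 18, 6 and 9, beside 8265 and 1566, 3756 and 4353, 3372 and 3488. With the threshold kept, a pseudocount of 0.1 called 5 genes at 25°C, and a filter at 5 TPM, which removes low genes from testing, left 1 at 28°C, 1 for 28 against 22°C in Si and 0 in CK. For 28 against 22°C, median-of-ratios scaling gave 1 in Si and 2 in CK, and quantile normalization gave 1 in Si. Fitting only the groups compared left 2 genes in the interaction at 25°C. APL1 was among those lost.

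With each sample left out in turn, 1 to 4 genes were called at 22°C (1 without CK replicate 2 and 4 without Si replicate 3, both at 22°C), 2 to 3 at 25°C and 2 to 3 at 28°C. The interactions held 2 to 4 genes at 25°C and 5 to 10 at 28°C (5 without CK replicate 3 at 28°C), 28 against 22°C gave 1 to 2 in Si and 0 to 1 in CK (0 without any of the CK samples at 28°C), and 25 against 22°C gave 0 in both. Of 2299 single values recomputed this way, 2172 stayed on their side of the threshold, 98 lost and 29 gained a call. Of the values that passed before or after, 0 changed sign. Sign changes of values that passed in neither fit were not counted.

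Median-of-ratios scaling, which lowers all Si values against CK, turned the sign of Si over CK in 25 cases, of which 16 passed the adjusted p before or after it. These were APL1 (−0.29), APS1 (−0.10), PGM1 (−0.20), SS1 (−0.024), SBE2.1 (−0.26), ISA2 (−0.058), AMY3 (−0.26) and PHS1 (−0.12) at 22°C, PGM1 (−0.13), SS1 (−0.070), SBE2.1 (−0.11), SBE2.2 (−0.10) and PHS1 (−0.044) at 25°C, and PGI1 (−0.017), AMY3 (−0.20) and DPE2 (−0.019) at 28°C. Quantile normalization turned it in 12 cases, of which 2 passed, APL2 (−0.095) and ISA2 (−0.083) at 22°C. The other 9 and 10 cases passed in neither fit.

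Replicate numbers did not pair the samples, as deviations of same-numbered samples correlated at −0.0276 to 0.162 over 9 pairs, 2 of them over 0.1. With the number as a replicate block, 2, 2 and 3 genes were called between Si and CK, 4 and 10 in the interactions, 0 and 2 with temperature in Si and 0 and 1 in CK. In that limma fit BAM6 passed the adjusted p as higher at 22°C (0.045) and BAM9 at 28°C (0.024). TPM keeps no depth, so the counting error of low genes such as AMY1, GPT2 and GBSS1 is unknown, and 3 samples per group limit what small changes can show.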
